A study of Mus musculus with 3 samples.

Results

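The 78 protein-coding genes whose symbol starts with Mrpl or Mrps and a number were taken, by symbol alone, from the 54532 genes listed for each library. They encode proteins of the mitochondrial ribosome, and 1 of them, Mrps36, encodes a subunit of the 2-oxoglutarate dehydrogenase complex in spite of its symbol. By the known make-up of the ribosome, 51 members belong to the large subunit, among them Mrps18a and Mrps30, and 26 to the small subunit. The members lie on 17 chromosomes, with 11 on chromosome 11, 8 on chromosome 17 and 7 on chromosome 6. The mitochondrial ribosome translates the few messenger RNAs of mitochondrial DNA, all of which code for membrane subunits of the oxidative phosphorylation complexes. Its ribosomal RNAs come from mitochondrial DNA, while all of its proteins are encoded in the nucleus, made in the cytosol and imported. Some of the proteins descend from bacterial ribosomal proteins and others were added in the mitochondrial lineage.

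Each of the 3 groups was 1 RNA-seq library made from dorsal dura mater pooled from 6 mice, so no spread between mice or replicates can be given and no test was run. All mice had been inoculated 12 days earlier with 4T1-DM cells, a model of dural metastasis named after the mouse mammary carcinoma line 4T1, and were given PBS, ZOL, or ZOL together with Ang2. The cells are labelled CD45-CD31+PDPN+, which is the surface pattern of lymphatic endothelium. There was no group without tumour cells. Strain, age, sex and dose were not given in the sources used here.

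Depth and make-up differed between the libraries before any member was compared. Where 3 values follow each other below, they are those of PBS, ZOL and ZOL+Ang2 in that order. Reads recovered from the deposited RPKM values totalled 1675532, 16586760 and 9204901. Levels are given as CPM, the share of a library's reads scaled by the trimmed mean of M-values (TMM), in which 1 read is worth 0.538, 0.0637 and 0.114 CPM. The gate markers went against the label in part: Ptprc, which encodes CD45, stood at 156, 25.1 and 76.1 CPM, and Pecam1, which encodes CD31, at 1.08, 475 and 177 CPM, while Pdpn, the third gene of the gate, was present in every library, at 18.8, 67.5 and 171 CPM. Of the lymphatic markers, Lyve1 had 0 reads in all 3 libraries and Prox1 had 2 reads in PBS and 0 in the others, while Flt4 stood at 0.538, 70.9 and 23.8 CPM. Unlike Pecam1, 5 other endothelial markers summed to their highest level in PBS, at 3050, 2442 and 670 CPM. Between PBS and ZOL, 4 of these 5 were within 2-fold and 1 was higher in ZOL. The summed level of 5 epithelial and carcinoma markers was 542, 4687 and 4394 CPM, that of 8 proliferation markers 88.3, 1260 and 936 CPM, that of 5 fibroblast markers 253, 365 and 8245 CPM, and that of 5 erythroid markers 191, 5.54 and 25144 CPM. The part of these cell types in the member levels was not tested, and fewer cells of a type and less RNA per cell cannot be told apart in bulk libraries.

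Promoter windows show what the members share apart from their symbols. RefSeq windows on GRCm38.p6, each of 250 bases before and 50 after a transcription start, were matched for 69 of the 78 members, giving 75 windows, and were searched on both strands for 5 short motifs. CCGGAAG, the core of ETS-family sites such as those of GABP, was in 34.7% of the member windows and in 8.86% of all 32851 windows. The NRF1 site, bound by a regulator of nuclear genes for mitochondria and shown in capitals in the sequences below, was in 9.33% against 2.44%, and AAGATGGCG, a YY1 site, in 10.7% against 1.403%. TATAAA was rarer in the member windows than in all windows, 6.67% against 13.6%, and CCAAT about as common, 40% against 37.4%. The member windows were also richer in G and C, with a median of 58.7% against 52.7%, and in CG pairs, with a median of 21 against 7. The ETS, NRF1 and YY1 motifs contain CG, while TATAAA and CCAAT do not. A match is a stretch of letters, not a shown binding site.

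The sequences below are the 100 bases before the start, or 30 bases around a motif downstream of it, each read 5′ to 3′ on the gene's strand with the motif in capitals. The first pair holds CCGGAAG in 2 genes of high level per length, Mrpl27 on the plus strand at chr11:94653691-94653790 and Mrpl34 on the plus strand at chr8:71464826-71464925.
Mrpl27: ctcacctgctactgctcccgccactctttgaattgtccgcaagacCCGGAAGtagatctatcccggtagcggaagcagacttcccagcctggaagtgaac
Mrpl34: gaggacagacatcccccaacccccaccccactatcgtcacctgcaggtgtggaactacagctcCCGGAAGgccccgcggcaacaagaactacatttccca

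The next 3 hold an NRF1 site in genes with unlike patterns over the libraries: Mrpl44, with 0 reads in PBS, on the plus strand at chr1:79775918-79776017; Mrpl9, highest in ZOL+Ang2, on the plus strand at chr3:94443236-94443335; and Mrpl17, with 0 reads in ZOL+Ang2, on the minus strand at chr7:105811088-105811187.
Mrpl44: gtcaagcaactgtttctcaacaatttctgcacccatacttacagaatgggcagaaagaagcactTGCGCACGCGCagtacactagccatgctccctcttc
Mrpl9: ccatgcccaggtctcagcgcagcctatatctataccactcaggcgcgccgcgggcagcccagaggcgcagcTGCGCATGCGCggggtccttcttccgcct
Mrpl17: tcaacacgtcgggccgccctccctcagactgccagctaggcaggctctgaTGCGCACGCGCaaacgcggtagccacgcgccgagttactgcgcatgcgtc

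The last pair holds AAGATGGCG just downstream of the start, in Mrpl37, highest in PBS, on the minus strand at chr4:107066822-107066851 and in Mrps24, lowest in PBS, on the minus strand at chr11:5707652-5707681.
Mrpl37: ctgcacgggcaAAGATGGCGgcgtccaggt
Mrps24: cgggtcgcgccggcccAAGATGGCGtggtc

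The members were lowest as a group in PBS and highest in ZOL. Summed over all 78, they took 1887, 5413 and 4347 CPM. The sum was 2.87-fold higher in ZOL than in PBS (95% exact binomial interval 2.77 to 2.97), 1.25-fold lower in ZOL+Ang2 than in ZOL (1.23 to 1.26) and 2.30-fold higher in ZOL+Ang2 than in PBS (2.23 to 2.39). These and all later intervals are exact binomial, and cover counting error only: amplified cDNA was counted without molecular identifiers. Of genes with 1 to 40 reads, 61.0%, 53.2% and 51.0% had an even count. Whether the 2 mates of a pair were counted as 2 reads was not tested. Where they were, the intervals are too narrow and a count of 2 may be 1 fragment. The median member stood at 2.69, 68.4 and 50.5 CPM. On the deposited RPKM as they stand, the members summed to 1247, 1781 and 1623, so the size of the difference from PBS depended on the scale. By CPM, the median log2 fold of all genes tested in ZOL against PBS was itself 0.94.

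Read counts of the members in PBS ran from 0 to 263. There 23 members had 0 reads, 21 had 1 to 10 reads, 8 of them exactly 2, and the other 34 had 18 to 263 reads. In ZOL, Mrpl53 alone had 0 reads and every other member had more than 10, while in ZOL+Ang2 4 members had 0 reads and 4 had 1 to 10. Mrpl53 had 0 reads in all 3 libraries, and 88.0% of its exon length overlaps other annotated genes. Among the 50 members of at least 50 CPM in ZOL, 13 (26.0%) had 0 reads in PBS, against 18.8% of the 4175 genes of that level in ZOL, and 29 (58.0%) had 10 or fewer, against 42.7%. In ZOL+Ang2, 2 of the same 50 (4.0%) had 0 reads, against 4.53% of those genes, and 5 (10%) had 10 or fewer, against 7.38%. A PBS count of 0 allows up to 3 reads, or 1.61 CPM, while the same floor is 0.191 and 0.342 CPM in the other libraries. In ZOL, the members with 0 reads in PBS had a median of 62.7 CPM, against 69.4 CPM for those with 1 to 10 PBS reads and 71.4 CPM for the other 34. In ZOL+Ang2 they were lower than the rest, with a median of 29.6 CPM against 57.5 and 59.3 CPM. They were shorter, with a median exon length of 1644 bases against 2255 and 3243.5.

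**Figure D1:**
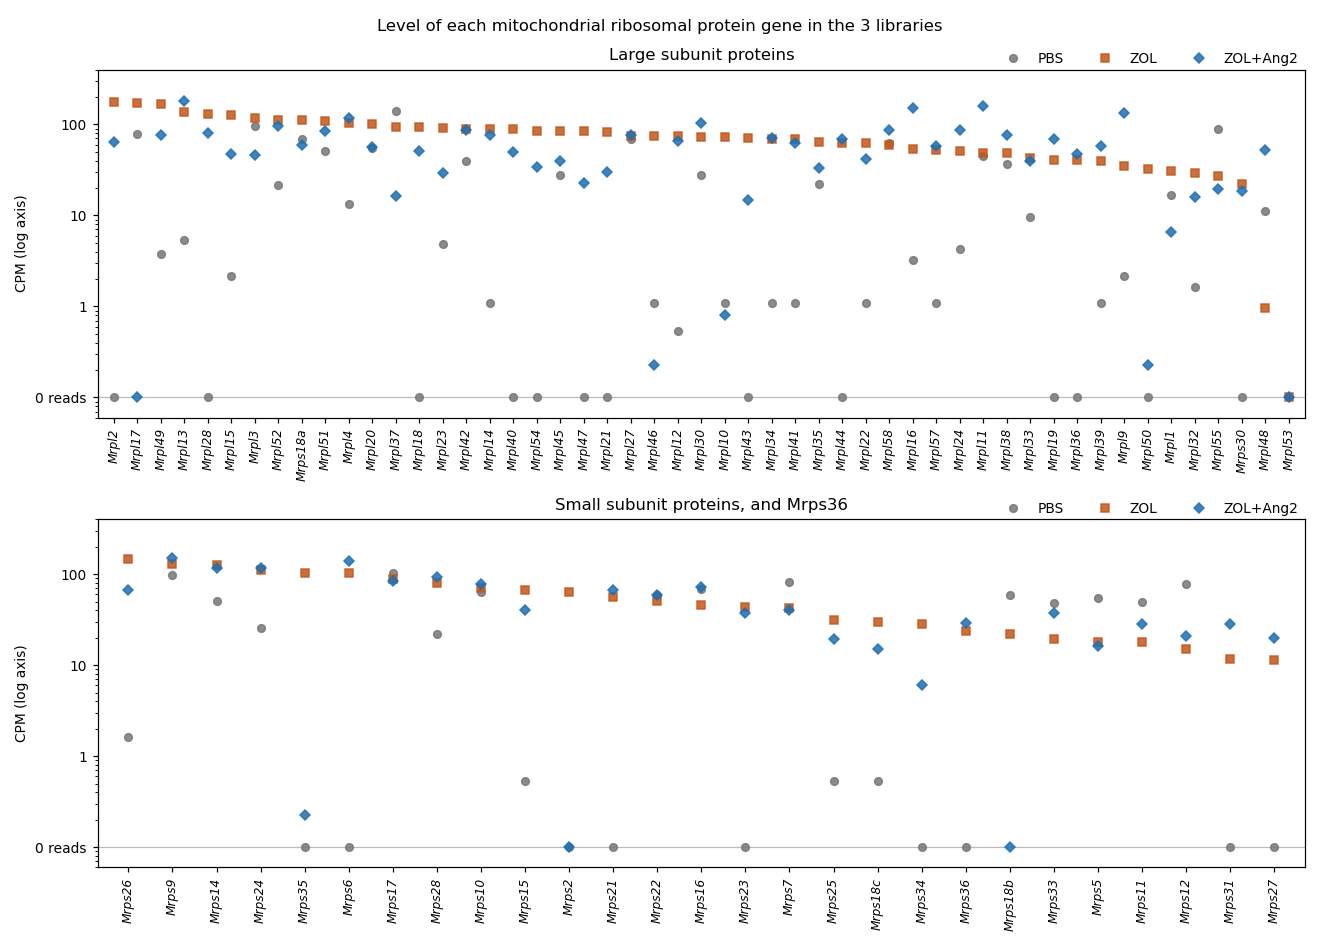
CPM of each of the 78 members (log axis, 0 reads drawn on the bottom line) in PBS (circles), ZOL (squares) and ZOL+Ang2 (diamonds), ordered by the ZOL level, large subunit above and small subunit with Mrps36 below. The 23 circles on the bottom line are members with 0 reads in PBS, and the diamonds there or just above it include Mrpl17, Mrps2, Mrps18b, Mrps35, Mrpl46, Mrpl50 and Mrpl10.

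ZOL was compared with PBS first. Log2 folds were taken on CPM plus 5 for genes whose mean level reached 10 CPM, a filter that 10942 genes and 77 members passed, all but Mrpl53. At least 2-fold higher in ZOL were 55 of the 77 members (71.4%), against 49.2% of all genes tested, and at least 2-fold lower were 7 (9.09%), against 29.4% of all genes. The median member log2 fold was 2.53, or 2.70 with the members at 0 reads in PBS set to the bound their floor allows, and the median of all genes was itself 0.94, so that the members stood 1.59 above it. The excess over all genes was not of 1 size: over the 34 members whose mean reached 50 CPM, 58.8% were higher in ZOL against 57.3% of all genes of that level and their median was 0.29 below that of all, and over the 43 members with neither an exon overlap nor a pseudogene copy the median was 0.69 above it. Of the members past 2-fold, 88.7% were higher in ZOL under TMM, 80.0% under median-of-ratios size factors and 70.4% on the deposited RPKM. All genes moved the same way, with a median of 0.94, -0.17 and -1.59 under these scalings in that order. At least 2-fold higher were 71.4%, 59.5% and 55.9% of the members tested, against 49.2%, 37.4% and 28.95% of all genes. At least 2-fold lower were 9.09%, 14.9% and 23.5% of the members, against 29.4%, 41.7% and 54.7% of all genes. The fall in the member share thus does not show a smaller excess over all genes. Of the 77 members, 13 were higher in ZOL than in PBS by CPM and lower by deposited RPKM, and 4 of these, Mrpl17, Mrpl42, Mrpl51 and Mrps14, were at least 2-fold higher by CPM.

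**Figure D2:**
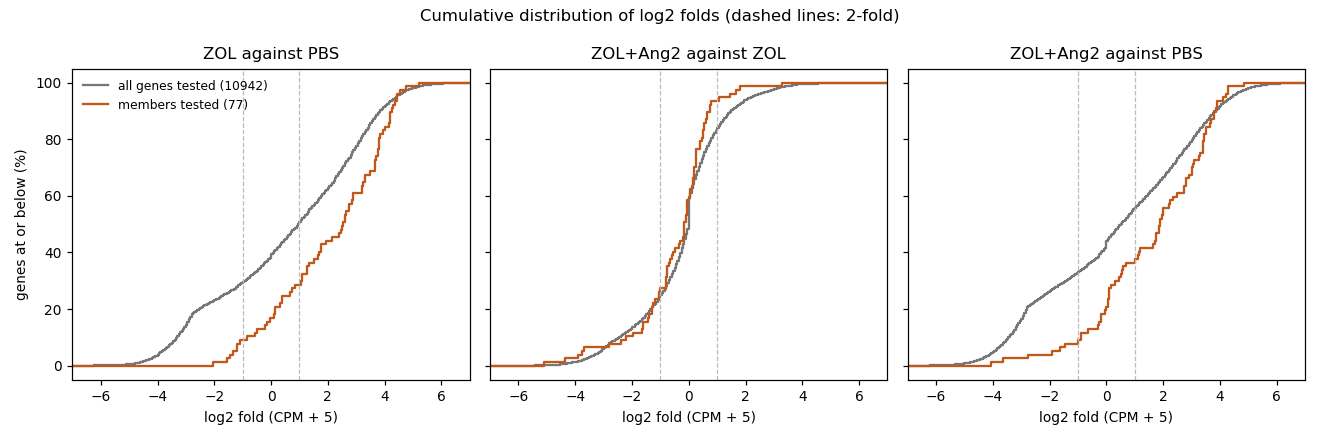
Cumulative share (%) of the 77 members tested and of all 10942 genes tested at or below each log2 fold of CPM plus 5, in the 3 comparisons, with dashed lines at 2-fold. The member curve lies right of the curve of all genes in both comparisons with PBS, where 71.4% and 62.3% of the members were at least 2-fold higher, and near it in ZOL+Ang2 against ZOL.

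The 4 members with the highest fold in ZOL against PBS were Mrpl2, Mrpl28, Mrps26 and Mrps35. Mrpl2, a large subunit protein next to the peptidyl transferase centre (chr17:46646229-46650139 in the annotation), stood at 0, 177 and 63.5 CPM, at least 109.65-fold higher in ZOL than the PBS floor. Mrpl28, a large subunit protein, stood at 0, 129 and 80.5 CPM, at least 79.8-fold higher in ZOL. Mrps26, a mitochondria-specific small subunit protein, stood at 1.61, 147 and 67.0 CPM, with 3 reads in PBS and a ratio of 91.0 (31.1 to 442). Mrps35, also specific to the mitochondrial small subunit, stood at 0, 102 and 0.228 CPM, at least 63.4-fold higher in ZOL than in PBS. All 4 were high in ZOL and at or under the floor in PBS, and Mrps35 was also near 0 in ZOL+Ang2.

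Large subunit proteins near the peptidyl transferase centre and its tunnel did not move as 1 block. Mrpl3 was at 96.9, 119 and 45.8 CPM and Mrpl27 at 69.4, 75.3 and 76.3 CPM, so both were within 2-fold between PBS and ZOL by CPM. On the deposited RPKM both were over 2-fold lower in ZOL, Mrpl3 at 24.1, 11.8 and 5.15 RPKM and Mrpl27 at 117, 50.7 and 57.9 RPKM. Mrpl16 stood at 3.23, 54.1 and 152 CPM, 16.8-fold higher in ZOL than in PBS (7.67 to 45.8). Around the exit of the nascent chain tunnel, Mrpl22 stood at 1.08, 62.6 and 42.0 CPM, Mrpl23 at 4.84, 90.5 and 29.4 CPM, Mrpl24 at 4.31, 50.4 and 86.5 CPM and Mrpl47 at 0, 83.9 and 22.5 CPM. Each of these 4 was at least 2-fold higher in ZOL than in PBS. Other genes overlap 26.3% of the exon length of Mrpl24 and 24.2% of that of Mrpl47. Mrpl23 has a pseudogene copy, so the levels of Mrpl23, Mrpl24 and Mrpl47 are uncertain. Mrpl45, which lies at the tunnel exit and holds the ribosome to the inner membrane, stood at 27.4, 84.8 and 39.1 CPM, 3.09-fold higher in ZOL (2.34 to 4.17).

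The stalk proteins, of which Mrpl10, Mrpl11 and Mrpl12 serve the factors of translation, also differed among themselves. Mrpl12 stood at 0.538, 74.0 and 65.3 CPM, with 1 read in PBS and a ratio of ZOL to PBS of 137 (24.6 to 5433). Mrpl10, on which Mrpl12 sits, stood at 1.08, 71.9 and 0.798 CPM, with 2, 1129 and 7 reads. Mrpl11 was at 45.2, 48.3 and 159 CPM, but at 23.2, 9.92 and 36.8 RPKM, and Mrpl1, of the stalk on the other side, at 16.7, 30.7 and 6.50 CPM. Mrpl10 and Mrpl12 were thus alike in PBS and ZOL and unlike in ZOL+Ang2, where Mrpl10 was near 0.

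At the central protuberance, where the mitochondrial large subunit carries several proteins of its own, Mrpl38 stood at 36.6, 48.1 and 75.7 CPM, Mrpl40 at 0, 88.4 and 49.6 CPM and Mrpl46 at 1.08, 74.9 and 0.228 CPM. Mrpl48, in the same place, stood at 11.3, 0.956 and 52.1 CPM, 11.8-fold lower in ZOL than in PBS (5.81 to 24.7) and 54.5-fold higher in ZOL+Ang2 than in ZOL (32.7 to 98.2). Mrpl48 (chr7:100545751-100608301) was the only member of the 77 tested under 10 CPM in ZOL, and the annotation holds a pseudogene copy and an exon overlap for it, so its reads are uncertain. Mrpl37 was the highest member by CPM in PBS, and stood at 142, 94.1 and 16.2 CPM.

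By subunit, the large subunit had 39 of 50 members (78.0%) at least 2-fold higher in ZOL than in PBS and 2 (4.0%) lower, against 49.2% and 29.4% of all genes, with a median log2 fold of 2.86, or 3.05 with bounds. The small subunit was nearer to all genes, with 15 of 26 (57.7%) higher and 5 (19.2%) lower and a median of 1.67, or 1.78 with bounds. Of the 30 large subunit members with a bacterial homologue 24 were higher and 0 lower, and of the 20 specific to mitochondria 15 were higher and 2 lower. Of the 15 small subunit members with a bacterial homologue 7 (46.7%) were higher and 3 lower, with a median of 0.36, against 0.94 for all genes, and of the 11 specific to mitochondria 8 were higher and 2 lower, with a median of 1.74. Mrps18a, within 2-fold, Mrps18b, classed as specific to mitochondria and lower in ZOL, and Mrps28, higher in ZOL, could be placed in either class of origin. The direction for the small subunit depended on the scaling: its summed deposited RPKM was 572, 458 and 512, lower in ZOL than in PBS, while that of the large subunit was 674, 1311 and 1094. No test of the difference between subunits or classes was made.

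**Figure D3:**
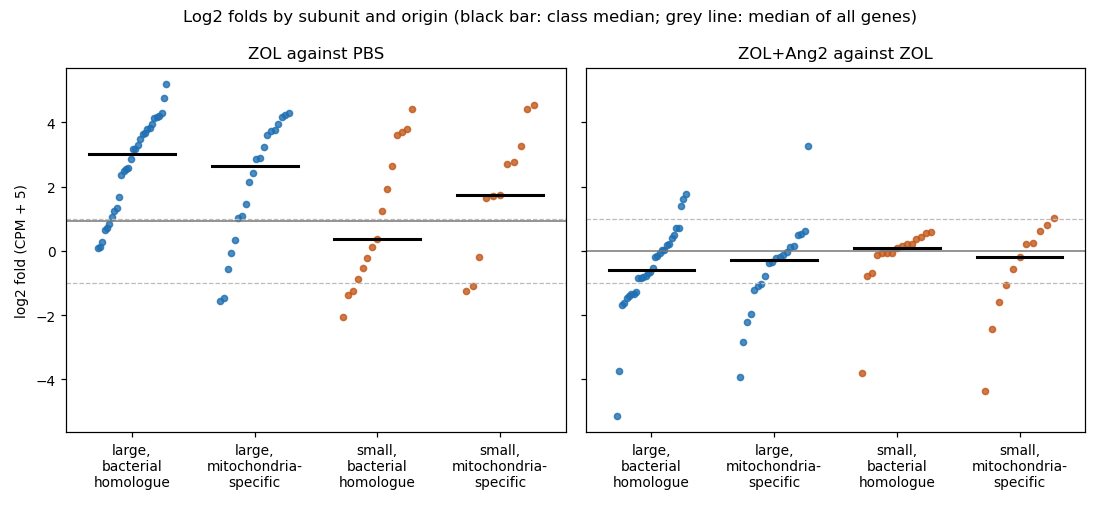
Log2 fold of CPM plus 5 for each member tested, by subunit and origin, in ZOL against PBS (left) and ZOL+Ang2 against ZOL (right), with the class median as a black bar, the median of all genes as a grey line and 2-fold as dashed lines. On the left, the small subunit members with a bacterial homologue had the lowest class median, 0.36, and the large subunit members with one the highest, 3.01.

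The 7 members at least 2-fold lower in ZOL than in PBS were Mrps12, Mrpl55, Mrpl48, Mrps5, Mrps18b, Mrps11 and Mrps33, of which 5 are small subunit proteins. Mrps12, a protein of the decoding centre (chr7:28739641-28741820), stood at 78.0, 15.03 and 21.1 CPM, 5.19-fold lower in ZOL (4.19 to 6.41). Mrpl55, a mitochondria-specific large subunit protein, stood at 88.8, 27.0 and 19.7 CPM, 3.29-fold lower (2.73 to 3.94). Mrps5, by the entry of the messenger RNA channel, stood at 54.4, 18.1 and 16.2 CPM, 3.00-fold lower (2.37 to 3.78). In each of these 3 the PBS level was the highest and both others were close to each other. Mrps18b stood at 59.2, 22.2 and 0 CPM, Mrps11 at 49.0, 17.9 and 28.3 CPM and Mrps33 at 47.9, 19.6 and 37.6 CPM. Another gene, Gm16279, overlaps 30.5% of the exon length of Mrps18b. Over the 34 members with more than 10 reads in PBS, 12 were at least 2-fold higher in ZOL, 7 lower and the other 15 within 2-fold, and 13 had a higher CPM in PBS than in ZOL. Because these 34 were picked by their PBS reads, the split is partly set by that choice and is given without a share over all genes.

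ZOL+Ang2 was then compared with ZOL. Most members were within 2-fold, 51 of 77, with 5 (6.49%) at least 2-fold higher, against 16.2% of all genes tested, and 21 (27.3%) at least 2-fold lower, against 24.8% of all genes. The median member log2 fold was -0.17, and -0.15 relative to that of all genes. With factors and filter taken from ZOL and ZOL+Ang2 alone, an alternative added after seeing the data, 5 members were higher and 20 lower and the relative median was 0.0058. Its sign was thus not the same over the alternatives, which also change which genes are tested. Because this comparison and that of ZOL with PBS share the ZOL library, no count over both is given, and values in all 3 libraries stand side by side.

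A few members were at or near 0 reads in ZOL+Ang2 while well read in ZOL. Mrpl17, a large subunit protein by the tunnel exit (chr7:105803206-105811099), had 147, 2662 and 0 reads, for 79.1, 169.6 and 0 CPM, at least 496-fold lower in ZOL+Ang2 than in ZOL. Mrps2, a small subunit protein, had 0, 1011 and 0 reads, with 64.4 CPM in ZOL, at least 188-fold lower in ZOL+Ang2. Mrps18b had 0 reads in ZOL+Ang2 against 348 in ZOL, at least 64.8-fold lower. These 3 and Mrpl53 were the 4 members at 0 in ZOL+Ang2, and Mrps2 alone of the 3 was also at 0 in PBS.

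Mrps35, Mrpl46 and Mrpl50 each had 2 reads in ZOL+Ang2. Their ratios of ZOL to ZOL+Ang2 were 449 (124 to 3707) for Mrps35, 328 (90.7 to 2716) for Mrpl46 and 141 (38.8 to 1168) for Mrpl50, a mitochondria-specific large subunit protein at 0, 32.2 and 0.228 CPM. Mrpl10 was 90.1-fold lower in ZOL+Ang2 than in ZOL (43.6 to 225). Next came Mrpl37, 5.81-fold lower (4.89 to 6.95), and Mrpl43, 4.91-fold lower (4.08 to 5.94). Mrpl43 stood at 0, 71.6 and 14.6 CPM, with 33.4% of its exon length under Twnk, so its level is uncertain. There was thus a gap between 7 members at 7 or fewer reads in ZOL+Ang2 and those that were lower by a few fold. Such low counts were not particular to the members. Among genes of at least 50 CPM in ZOL, 4.53% had 0 reads in ZOL+Ang2, against 4.0% of the members of that level. With 10 or fewer reads there were 7.38% of those genes and 10% of those members.

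The other members at least 2-fold lower in ZOL+Ang2 than in ZOL were Mrpl47, Mrpl1, Mrpl23, Mrpl2, Mrpl21, Mrpl15, Mrpl3, Mrpl54, Mrpl49 and Mrpl45 of the large subunit, with log2 folds from -1.69 to -1.03 in that order, and Mrps34, at -1.61, and Mrps26, at -1.08, of the small subunit. Mrpl49 stood at 3.77, 166 and 76.1 CPM, Mrpl15 at 2.15, 125 and 46.9 CPM, Mrpl21 at 0, 82.1 and 29.6 CPM and Mrpl54 at 0, 85.1 and 33.8 CPM. In all, 16 of the 50 large subunit members (32.0%) were lower and 4 higher, with a median log2 fold of -0.35, and 5 of the 26 small subunit members (19.2%) were lower and 1 higher, with a median of 0.01. Both shares lower lie near the 24.8% of all genes. Of the 15 small subunit members classed as having a bacterial homologue, Mrps2 was the 1 past 2-fold. Mrps34 had 77.8% of its exon length under other genes, among them Nme3 and Mapk8ip3, so its level of 0, 28.6 and 6.04 CPM is uncertain.

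**Figure D4:**
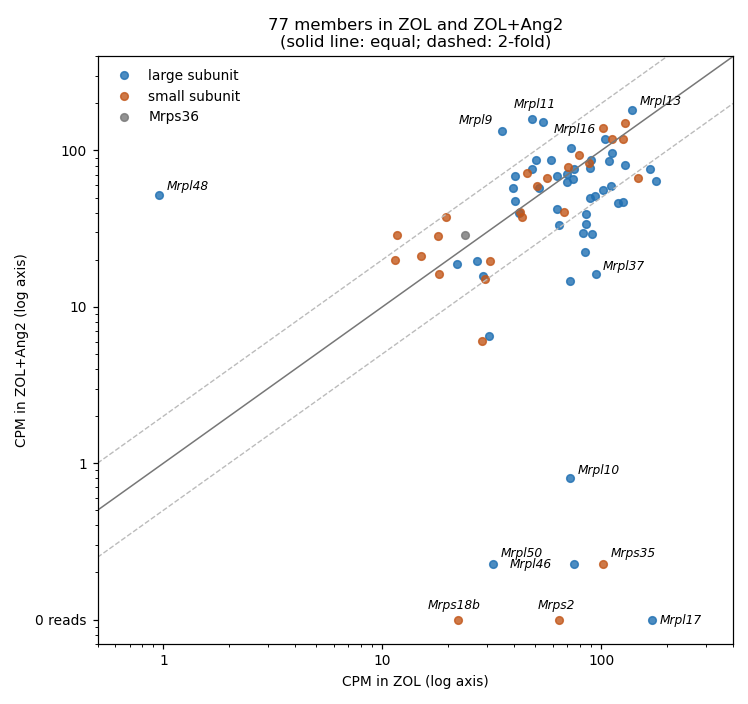
CPM of the 77 members tested in ZOL (x, log axis) and ZOL+Ang2 (y, log axis, 0 reads drawn on the bottom line), coloured by subunit, with the line of equal levels and dashed lines at 2-fold. Most points lie between the dashed lines, 7 lie at or near the bottom (Mrpl17, Mrps2, Mrps18b, Mrps35, Mrpl46, Mrpl50 and Mrpl10), and Mrpl48 lies far to the left.

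The 5 members at least 2-fold higher in ZOL+Ang2 than in ZOL were Mrpl48, Mrpl9, Mrpl11, Mrpl16 and Mrps31. Mrpl9, a large subunit protein, stood at 2.15, 35.1 and 133 CPM, 3.78-fold higher in ZOL+Ang2 than in ZOL (3.42 to 4.20). Mrpl11, of the factor-binding stalk base, was 3.29-fold higher (3.01 to 3.60), and Mrpl16, of the tRNA sites, 2.80-fold higher (2.57 to 3.06). Mrps31, a mitochondria-specific small subunit protein, stood at 0, 11.7 and 28.6 CPM, 2.46-fold higher (2.02 to 2.99). Mrpl9, Mrpl11 and Mrpl16 were each highest in ZOL+Ang2 of the 3 libraries, and reads of Mrpl11 and Mrpl16 were not recovered as whole numbers in at least 1 library.

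ZOL+Ang2 against PBS, which shares a library with each comparison above, gave 48 of 77 members (62.3%) at least 2-fold higher, against 44.2% of all genes tested, and 7 (9.09%) lower, against 33.1%. The median member log2 fold was 1.86, or 1.87 with bounds, and 1.38 above that of all genes. As in ZOL against PBS, the 34 members of at least 50 CPM stood below all genes of that level, by 0.32, and the 43 without overlap or copy stood 0.68 above all genes. The highest folds were those of Mrps6, Mrpl9, Mrpl16 and Mrpl13. Mrps6, a small subunit protein, stood at 0, 102 and 139 CPM, at least 86.1-fold higher in ZOL+Ang2 than the PBS floor. Mrpl13, a large subunit protein, stood at 5.38, 138 and 183 CPM and was the highest member by CPM in ZOL+Ang2. The lowest folds were those of Mrpl17 and Mrps18b, at least 231-fold and at least 173-fold lower than in PBS, of Mrpl37, 8.74-fold lower (7.10 to 10.8), and of Mrpl55, 4.50-fold lower (3.61 to 5.60).

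Levels per length were compared on the deposited RPKM, since CPM is not divided by length. The 5 members highest in mean RPKM over the libraries were Mrpl27, Mrpl55, Mrps28, Mrpl34 and Mrpl52. Mrpl27 stood at 117, 50.7 and 57.9 RPKM, Mrpl55 at 143, 17.4 and 14.4 RPKM, Mrps28 at 46.7, 66.9 and 89.8 RPKM, Mrpl34 at 2.94, 76.1 and 86.9 RPKM and Mrpl52 at 32.2, 66.9 and 64.8 RPKM. The order thus changed with the library: Mrpl55 was the highest member in PBS, Mrpl2 in ZOL, at 100.3 RPKM, and Mrps28 in ZOL+Ang2. The lowest, after Mrpl53, were Mrps30, at 0, 2.17 and 2.10 RPKM, Mrps25, at 0.136, 3.13 and 2.23 RPKM, Mrpl32, at 0.537, 3.85 and 2.38 RPKM, and Mrpl48, at 2.30, 0.0777 and 4.78 RPKM. Nr2c2 overlaps 69.8% of the exon length of Mrps25, so the level of Mrps25 is uncertain. Over the 77 members tested, Spearman's rho between RPKM in ZOL and ZOL+Ang2 was 0.67, against 0.69 over all 10942 genes, while PBS gave -0.05 with ZOL and 0.10 with ZOL+Ang2, against -0.11 and -0.09 over all genes. The genes are not independent replicates, and these values describe the libraries.

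RNA levels per length were spread widely among the members. The upper quartile of member RPKM was 3.26 times the lower one in ZOL, against 3.17 times for nuclear oxidative phosphorylation subunits and 3.45 times for cytosolic ribosomal proteins, and 5.92 times in ZOL+Ang2, against 3.39 and 3.83 times. In ZOL, RPKM fell along the annotated exon length with a Spearman's rho of -0.72 over the 77 members, while CPM had a rho of 0.05 with it. In ZOL+Ang2 the rho of RPKM with length was -0.61. In PBS it was 0.06, with 0.30 for CPM, against -0.46 for the oxidative phosphorylation subunits and -0.43 for the cytosolic ribosomal proteins in the same library. Exon length ran from 607 to 8631 bases with a median of 2394, and is the union of all annotated transcripts.

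Members whose known role differs from the rest were looked at whatever their values. Mrps36, the dehydrogenase subunit, stood at 0, 23.8 and 28.96 CPM, within the range of the ribosomal members. Mrps30, a large subunit protein, stood at 0, 21.8 and 18.7 CPM, and Mrps18a, also of the large subunit, at 69.4, 111 and 59.3 CPM, or 31.2, 19.9 and 12.0 RPKM. Mrpl58, a peptidyl-tRNA hydrolase built into the large subunit that can free stalled chains, stood at 61.9, 59.1 and 87.5 CPM and was among the members within 2-fold by CPM in all 3 comparisons.

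Other genes of mitochondrial translation gave a mixed picture beside the members. Of 5 proteins of the mitochondrial ribosome without an Mrpl or Mrps symbol, 4 passed the level filter, and of these 2 were at least 2-fold higher in ZOL than in PBS and 1 lower. Dap3 stood at 0, 62.7 and 39.2 CPM, Aurkaip1 at 1.08, 112 and 22.4 CPM, and Ptcd3 at 79.6, 19.3 and 46.3 CPM. Oxa1l, whose product inserts the new chains into the inner membrane, stood at 1.08, 51.5 and 0 CPM. Of 27 assembly and ribosomal RNA modification genes 17 passed the filter, of which 13 were higher in ZOL than in PBS and 2 lower. Of these 17, 6 had 0 reads in PBS and reached the filter only through the other libraries. In ZOL+Ang2 against ZOL, 3 (17.6%) were higher and 6 (35.3%) lower. Among the lower ones were the methyltransferase gene Mrm1, at 1.08, 39.0 and 0 CPM, and the RNA-binding Fastkd2, at 1.08, 92.5 and 8.78 CPM. Over all genes tested, 49.2% were higher and 29.4% lower in the first comparison, and 16.2% and 24.8% in the second.

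Of 13 translation factor genes 7 passed the filter, of which 4 were higher in ZOL than in PBS and 1 lower, and 0 were higher and 1 lower in ZOL+Ang2 than in ZOL. The elongation factor gene Gfm1 stood at 6.996, 96.2 and 41.0 CPM, Tufm at 0, 51.0 and 29.99 CPM, and Guf1 at 112, 8.22 and 2.28 CPM. Of 17 mitochondrial aminoacyl-tRNA synthetase genes 12 passed the filter, of which 5 were higher and 4 lower in ZOL than in PBS, and 2 higher and 3 lower in ZOL+Ang2 than in ZOL. In ZOL against PBS the synthetase shares, 41.7% higher and 33.3% lower, lie near the 49.2% and 29.4% of all genes. Gatc, of the glutamyl-tRNA amidotransferase, stood at 0, 0.382 and 33.4 CPM. Wars2 stood at 192, 5.29 and 0 CPM, Sars2 at 167, 5.80 and 14.1 CPM and Yars2 at 0, 38.7 and 24.5 CPM. Of 8 genes of mitochondrial transcription and messenger stability 5 passed the filter, of which 4 were higher in ZOL than in PBS and 0 lower. Since 3 of these 5 had 0 reads in PBS and reached the filter only through the other libraries, this direction was largely set by the filter. In ZOL+Ang2 against ZOL, 4 of the 5 were lower and 1 higher, against 24.8% and 16.2% of all genes. Mtpap, the mitochondrial poly(A) polymerase, stood at 0, 106 and 0 CPM, Lrpprc at 0, 94.98 and 38.8 CPM and Polrmt, the RNA polymerase, at 1.08, 4.65 and 24.4 CPM.

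The larger groups and the products of mitochondrial DNA moved in different ways. Of 76 nuclear oxidative phosphorylation genes, 50 were at least 2-fold higher in ZOL than in PBS and 1 lower, with a median log2 fold of 1.54, and of 78 cytosolic ribosomal protein genes 47 were higher and 2 lower, with a median of 1.37. Both lists were more even than the members in ZOL+Ang2 against ZOL, with 2 higher and 3 lower among the 76 and 0 higher and 2 lower among the 78. Of all genes tested, 49.2% were higher and 29.4% lower in ZOL than in PBS, and 16.2% and 24.8% in ZOL+Ang2 than in ZOL. The 10 tested protein genes of mitochondrial DNA were all lower in ZOL than in PBS, with a median log2 fold of -3.02, and within 2-fold between ZOL and ZOL+Ang2. The large ribosomal RNA of the mitochondrial ribosome, mt-Rnr2, stood at 38855, 8971 and 7563 CPM and the small one, mt-Rnr1, at 993, 275 and 501 CPM. Both ribosomal RNAs were thus higher in PBS than in ZOL, while the summed member CPM was lower in PBS. The order was not the same for every member, since 13 had a higher CPM in PBS than in ZOL, nor on every scale, since the summed RPKM of the small subunit was higher in PBS, 572 against 458. On the deposited RPKM as they stand, the cytosolic ribosomal proteins turned, with a summed 27672, 26147 and 29849 RPKM, and no list was tested.

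**Figure D5:**
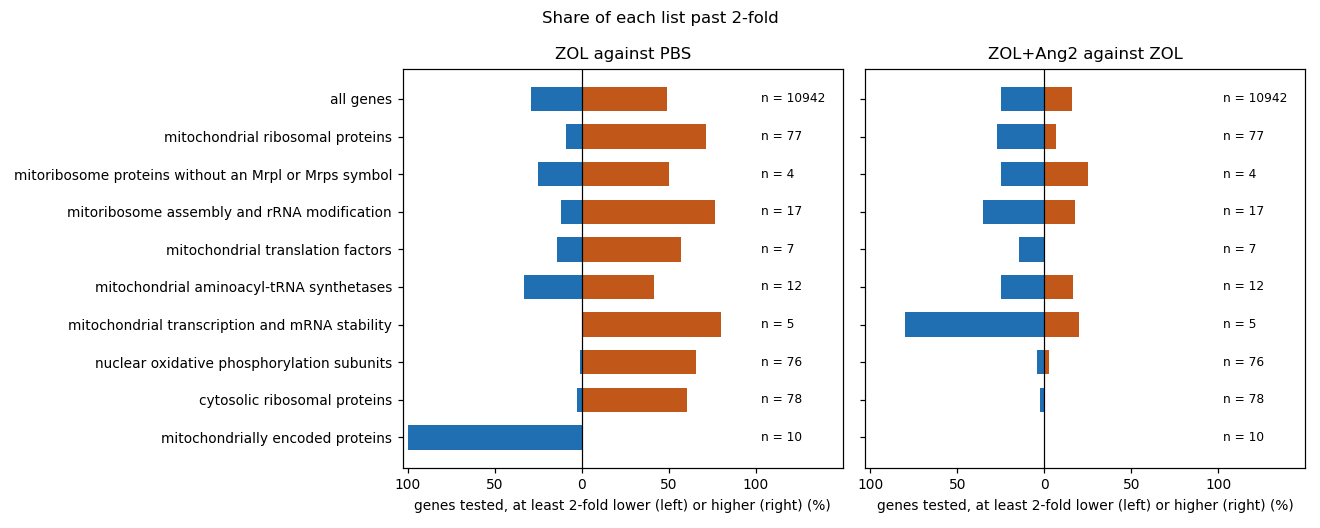
Share (%) of the tested genes of each list at least 2-fold higher (right of 0) and lower (left of 0) in the first comparison (left) and the second (right), ZOL+Ang2 against ZOL, with the number tested (n). The mitochondrial ribosomal proteins had 71.4% higher and 9.09% lower on the left, the nuclear oxidative phosphorylation subunits 65.8% and 1.32%, and the mitochondrially encoded proteins 0% and 100%.

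The expression of the regulators whose motifs were searched was listed too. The 9 nuclear regulators of mitochondrial genes did not share 1 order. The 5 that passed the level filter, each with 0 to 3 reads in PBS, were higher in ZOL than in PBS. Genes so low in PBS reach the filter only through the other libraries, so this direction was largely set by the filter. Nrf1 stood at 0, 40.4 and 42.2 CPM, Gabpa, which encodes the DNA-binding subunit of GABP, at 0, 53.1 and 18.1 CPM, Gabpb1, which encodes its partner subunit, at 1.08, 17.8 and 44.1 CPM, Yy1 at 1.61, 41.0 and 63.6 CPM and Myc at 1.08, 193 and 253 CPM. Of the 4 under the filter, Ppargc1a stood at 18.8, 0 and 0.456 CPM and Pprc1 at 6.46, 0.956 and 8.44 CPM, both lower in ZOL than in PBS. The others, Esrra and Ppargc1b, stood at 0, 24.0 and 0 CPM and at 0, 0.446 and 0.798 CPM. Whether they bear on the members was not tested.

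Many members share a start region with another gene. An opposite-strand protein-coding start lay within 1000 bases of 33 of the 78 members (42.3%), against 2384 of 22015 protein-coding genes (10.8%). The pairs named here were chosen after their values were seen. Mrpl46 and Mrps11 start 412 bases apart and differed: Mrpl46 stood at 1.08, 74.9 and 0.228 CPM and Mrps11 at 49.0, 17.9 and 28.3 CPM. Mrps12 and Sars2, the mitochondrial seryl-tRNA synthetase gene, start 172 bases apart and were both highest in PBS, Sars2 at 167, 5.80 and 14.1 CPM. Mrpl36 and Ndufs6, a complex I gene, start 29 bases apart and were both near 0 in PBS, Mrpl36 at 0, 40.3 and 47.3 CPM and Ndufs6 at 1.61, 121 and 109 CPM. Mrps18b and Ppp1r10 start 45 bases apart and differed, Ppp1r10 standing at 0, 36.2 and 129 CPM. Neighbours that share a start region were thus alike in some pairs and opposite in others, and since the strand setting of the counting is not given, reads where such genes overlap cannot be assigned to either.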

How the data were processed

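The authors deposited 1 RPKM value per gene and library, made with fastp, HISAT2 2.2.1 and featureCounts 2.0.6 on mm10 per the submitters' processing notes. Annotation, strand setting and the library total behind the RPKM were not given in the sources used here. Ensembl identifiers were named with GENCODE M21, which gave exon lengths for all but 37 of 54532 genes. RPKM times exon length was a whole multiple of 1 step per library, within 0.01, for 96.9%, 96.4% and 96.2% of genes with reads in PBS, ZOL and ZOL+Ang2, which gave reads. Their totals were 1.50, 0.701 and 0.785 times the total the RPKM values imply. TMM factors (trims 30% and 5%) were 1.11, 0.946 and 0.953. Python 3.11.15, numpy 2.4.6, pandas 2.3.3 and scipy 1.17.1 were used, and the code was tested on simulated data. A fold from 0 reads is a bound against a floor of 3 reads per library, and intervals are exact 95% binomial on both libraries' reads.

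Members were named by fixed rules: the 4 highest and 4 lowest folds per comparison, the 5 highest and 5 lowest mean RPKM, 0 reads in 1 library with at least 50 CPM in another, 2-fold differences in opposite directions, and known roles. Others appear by structural place. The members, lists and rules were chosen with earlier results of these data known. Of the members, 33 overlap exons of another gene, 10 of them by at least 20% of their length, 3 have a pseudogene copy, and 5 were not whole in at least 1 library. Marker lists of myeloid cells (1046, 100.5 and 1626 CPM in sum), endothelium (3050, 2442 and 670 CPM) and lymphocytes (266, 0.446 and 0 CPM) were also summed. One of the 4 lymphatic markers is not reported, since several genes share its symbol.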

Additional observations from a re-analysis of the deposited data

How the results depend on the processing

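No paired analysis was possible because each group was 1 library. Each of the 3 libraries carries a whole group, so none could be left out of its own comparison. Results are given in the order ZOL against PBS, ZOL+Ang2 against ZOL, ZOL+Ang2 against PBS. TMM over nuclear protein-coding genes left every count within 1.5 times. The median of members relative to all genes (1.59, -0.15 and 1.38) became 2.17 and 0.0217 for the first 2 with median-of-ratios factors, 4.05, 0.0028 and 2.81 on the deposited RPKM, -0.058 for the second with TMM over nuclear protein-coding genes, 2.55 for the first with a prior of 1 CPM, and 2.39 and 1.86 for the first and the last with a filter at 1 CPM. Members lower in ZOL than in PBS numbered 11 (14.9%) with median-of-ratios factors and 16 (23.5%) on RPKM, where all genes lower rose from 29.4% to 41.7% and 54.7%, and those lower in ZOL+Ang2 than in PBS 18 on RPKM (26.5%, against 54.8% of all genes). At 50 CPM, with 34 members left, the relative medians were -0.29, 0.0181 and -0.32. The higher counts were 20, 3 and 18 (58.8%, 8.82% and 52.9%), against 57.3%, 14.4% and 56.3% of all genes of that level. The lower counts were 0, 8 and 3 (0%, 23.5% and 8.82%), against 15.5%, 18.9% and 17.9%. Over the 43 members without overlap or copy, the relative medians were 0.69 and 0.68 for the comparisons with PBS. The higher counts were 28, 3 and 23 (65.1%, 6.98% and 53.5%), against 49.2%, 16.2% and 44.2% of all genes. The lower counts were 4 and 10 for the first 2 (9.30% and 23.3%), against 29.4% and 24.8%. In both of these settings fewer members are tested; why the medians moved was not tested. With the interval wholly past 2-fold, the counts were 51 higher and 6 lower, 5 and 20, and 46 and 6. That interval covers counting error only, and these counts are given without a share over all genes. Of the folds of named members past 2-fold, that of Mrpl17 in ZOL against PBS turned, from a log2 fold of 1.05 to -0.22 on RPKM. Counting all 77 members at any size of fold, RPKM turned the direction of 13, 7 and 11 in the 3 comparisons. The depth of PBS limits all comparisons with it, since a member under 1.61 CPM there may have 0 reads.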
